A study of Mus musculus with 2 samples.

Results

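Nuclei that the study annotated as CGE were examined in single-nucleus ATAC-seq libraries of the mouse primary motor cortex. They were taken as every nucleus with the deposited name CGE, which gave 592 of 16314 nuclei, 255 of 7440 in replicate 1 and 337 of 8874 in replicate 2. Both libraries came from the MOp-2 dissection and were made on the droplet-based 10x platform, as replicates 1 and 2 of 1 condition. The study's methods describe adult male C57BL/6J mice aged 56 to 63 days, with tissue of several mice pooled per replicate, and do not state the pool size of the 10x libraries. Of the cell barcodes, 105 occurred in both libraries. CGE was the name of 3 of them in replicate 1 and of 4 in replicate 2, with none CGE in both, and leaving these barcodes out gave a mean CGE median of 5891 fragments where all nuclei gave 5887.

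Cortical GABAergic interneurons arise in the ganglionic eminences of the embryonic forebrain. The caudal eminence (CGE) gives rise to Vip cells, many of which inhibit other interneurons, and to most Lamp5 cells, which include the neurogliaform cells of the upper layers. The medial eminence gives rise to Pvalb cells (PVGA), which inhibit the cell body and axon of their targets, and to Sst cells (SSTGA), which inhibit dendrites. The study names Vip and Lamp5 interneurons separately elsewhere, whereas CGE is 1 name here. In ATAC-seq the Tn5 transposase cuts accessible chromatin, so the unique fragments of a nucleus are the distinct pieces of accessible DNA recovered from it.

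Genes that mark these cells are all annotated as protein-coding, and their positions are given for mm10 (GRCm38) from GENCODE M21. Vip, which encodes vasoactive intestinal peptide, spans 5639218 to 5647617 on the plus strand of chromosome 10. Lamp5, which encodes a lysosome-associated membrane protein, spans 136052239 to 136069917 on the plus strand of chromosome 2. Npas1, which encodes a bHLH-PAS transcription factor, spans 16455721 to 16477728 on the minus strand of chromosome 7. Npy, which encodes neuropeptide Y, spans 49822710 to 49829507 on the plus strand of chromosome 6. The tables used here give totals per nucleus, so accessibility at these genes was not analysed here, and the name CGE was used as deposited and not checked against its markers.

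CGE nuclei were fewer than PVGA nuclei in both libraries. Their share of all nuclei was 3.43% (exact Clopper-Pearson 95% interval 3.03 to 3.87) in the first library and 3.80% (3.41 to 4.22) in the second. All such intervals cover counting error only. The mean was 3.61% ± 0.262 (SD, n = 2 libraries), beside 4.51% ± 0.0315 for PVGA and 3.36% ± 0.0589 for SSTGA. Of neuronal nuclei CGE made up 5.64% ± 0.334. For every 100 PVGA nuclei there were 75.7 CGE nuclei in replicate 1 and 84.7 in replicate 2. For every 100 SSTGA nuclei there were 103 and 112. Within the GABAergic class the CGE and PVGA intervals did not overlap in replicate 1 (27.3 to 33.6% and 36.8 to 43.6%) and overlapped narrowly at their ends in replicate 2 (29.7 to 35.4% and 35.4 to 41.4%). The SSTGA intervals of that class (26.4 to 32.7% in replicate 1 and 26.4 to 32.0% in replicate 2) overlapped those of CGE in both libraries. The SD of the share of all nuclei was larger in CGE than in PVGA or SSTGA, but the CGE intervals of the libraries overlapped. For the share of GABAergic nuclei the SD was 1.49 points in CGE, 1.26 in PVGA and 0.224 in SSTGA. With 2 libraries an exact sign-flip test cannot reach a two-sided p below 0.5, so no test was made of any comparison here, and differences are set beside the spread of the libraries.

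CGE nuclei carried fewer fragments than both of the other interneuron groups at every step of the fragment count. In replicate 1 the CGE median was 7389 total, 7080 uniquely mapped, 7047 properly paired and 6105 unique fragments per nucleus. In replicate 2 the corresponding medians were 6909, 6686, 6657 and 5668. The unique median of PVGA was 8082 and 7012.5 in replicates 1 and 2, and that of SSTGA was 7047 and 6666. The higher CGE median (replicate 1) thus lay below the lower median of either other group. Relative to PVGA the CGE median was 0.755 and 0.808, with a mean of 0.782 ± 0.0374 (SD, n = 2). Relative to SSTGA it was 0.866 and 0.850, with a mean of 0.858 ± 0.0113. The difference from PVGA was -1661 ± 447 fragments and that from SSTGA -970 ± 39.6, both larger than the spread of the difference between the libraries. Among the 17 annotated names CGE ranked 10 from the top in both libraries, just under near-projecting neurons (NPGL, 6715 and 6388), which made it the neuronal name with the fewest fragments. The next name below was non-neuronal in each library, at 4256 (VEC, vascular endothelial cells) and 3276 (OPC, oligodendrocyte precursors).

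**Figure D1:**
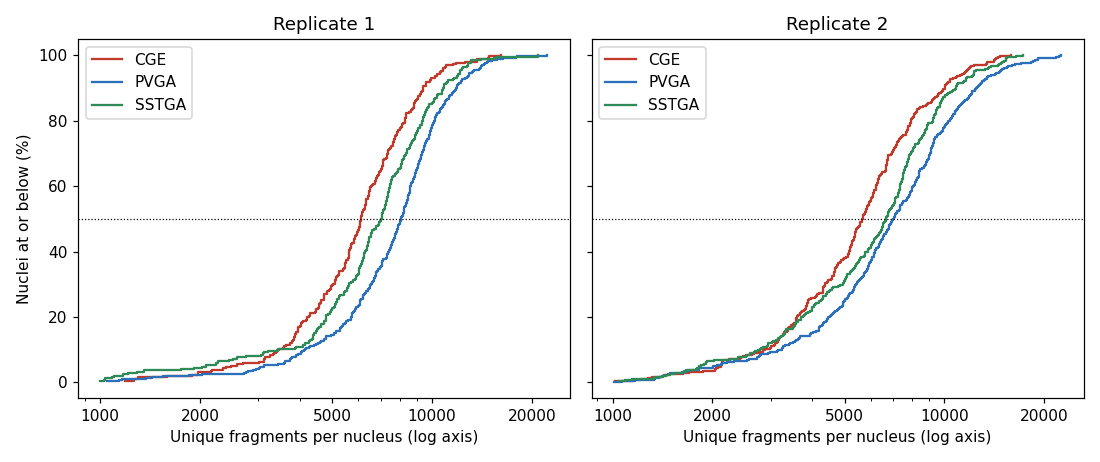
Cumulative share of nuclei (%) by unique fragments per nucleus (log axis) for CGE, PVGA and SSTGA in replicates 1 and 2; the dotted line marks 50%, where each curve crosses its median. At 50% CGE lies left of the other curves in both libraries, with medians of 6105 and 5668, and below 2000 fragments the curves run close together.

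A larger share of CGE than of PVGA nuclei lay below 5000 unique fragments in both libraries, and a smaller share had at least 10000. The lowest and highest counts of CGE nuclei were 1187 and 16081 in replicate 1 and 1018 and 15917 in replicate 2, where the highest PVGA counts were 22262 and 22481. The quartiles of CGE were 4677 and 7743 in replicate 1 and 3890 and 7414 in replicate 2. Nuclei under 2000 unique fragments were 3.14% of CGE (interval 1.36 to 6.09) in the first library and 3.56% (1.85 to 6.14) in the second, and these intervals overlapped those of both other groups. The corresponding shares were 2.37% and 4.52% in PVGA and 4.45% and 6.62% in SSTGA. The order of CGE and PVGA thus differed between the libraries at this limit. Below 5000 lay 29.8% (24.3 to 35.8) and 38.0% (32.8 to 43.4) of CGE nuclei in replicates 1 and 2, against 14.5% (11.0 to 18.8) and 24.9% (20.7 to 29.4) of PVGA, with no overlap, and against 22.3% (17.2 to 28.0) and 31.1% (25.9 to 36.7) of SSTGA, with overlap. Nuclei with at least 10000 were 7.06% of CGE (18 nuclei, 4.24 to 10.9) in the first library and 10.4% (35 nuclei, 7.34 to 14.1) in the second. The corresponding shares of PVGA were 22.0% (17.7 to 26.8) and 21.9% (17.9 to 26.2), with no overlap with CGE. Those of SSTGA were 14.6% (10.4 to 19.6) and 12.9% (9.35 to 17.2), which overlapped CGE in both libraries.

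The interneuron makeup differed between depths. GABAergic nuclei of each library were ordered by unique fragments and cut into 5 classes of nearly equal size. In the class with the fewest fragments CGE was the most frequent name, at 41.1% of nuclei (69 of 168, interval 33.6 to 48.9) in the first library and 41.3% (86 of 208, 34.6 to 48.4) in the second. SSTGA came next there, at 30.4% in replicate 1 and 31.25% in replicate 2, with intervals that overlapped those of CGE in both libraries. The PVGA interval of that class overlapped the one of CGE in replicate 1 but not in replicate 2. In the class with the most fragments CGE was the least frequent, with 14.3% (24 of 168, 9.37 to 20.5) and 21.6% (45 of 208, 16.2 to 27.9), although in replicate 2 that interval overlapped the one of SSTGA (21.5 to 34.0). PVGA ran the other way, from 28.6% to 57.7% in replicate 1 and from 27.4% to 51.0% in replicate 2. SSTGA stayed between 24.6% and 35.7% in all 5 classes of both libraries. As a share of fragments rather than of nuclei, CGE gave 26.6% of the GABAergic unique fragments in replicate 1 and 28.7% in replicate 2.

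**Figure D2:**
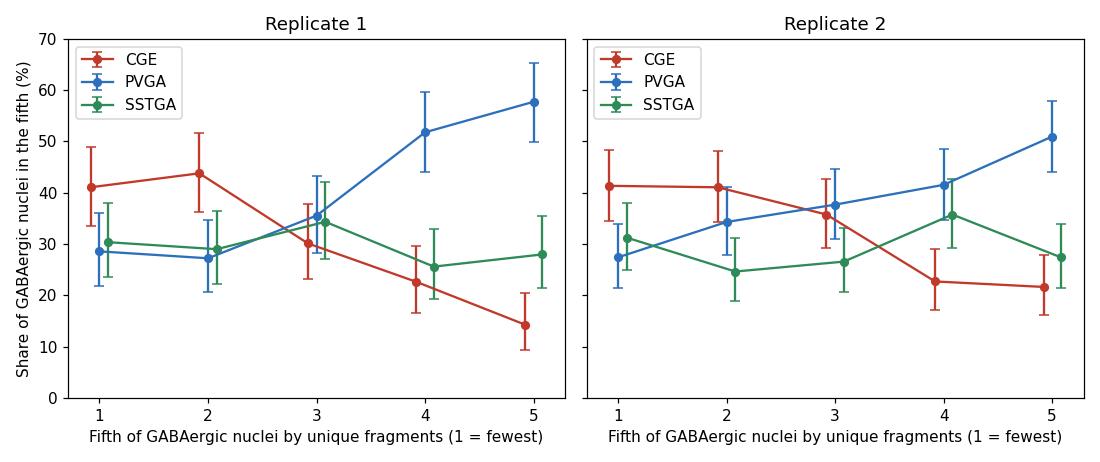
Share (%) of GABAergic nuclei annotated CGE, PVGA or SSTGA in each of 5 classes of unique fragments (1 has the fewest), as points with exact 95% binomial intervals that cover counting error only. From class 1 to class 5, CGE goes from 41.1% to 14.3% in replicate 1 and from 41.3% to 21.6% in replicate 2, and PVGA from 28.6% to 57.7% and from 27.4% to 51.0%.

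The losses from total to unique fragments were nearly the same in CGE as in the other interneurons. The median share of uniquely mapped fragments in CGE nuclei was 96.2% in replicate 1 and 96.3% in replicate 2. The difference of CGE from PVGA was -0.193 ± 0.0385 percentage points (SD, n = 2), and that from SSTGA was 0.0706 ± 0.000805. Proper pairs were 99.5% of the uniquely mapped fragments of CGE in both libraries. Duplicates made up 13.7% of the properly paired fragments in replicate 1 and 14.6% in replicate 2. This share exceeded that of PVGA by 0.0952 and 0.173 points, and that of SSTGA by 0.127 and 0.136 points, whereas the libraries differed by 0.960 points within CGE. Within CGE the duplicate share was higher in deeper nuclei (Pearson's r 0.417 and 0.323, Spearman's rho 0.421 and 0.301, over 255 and 337 nuclei of 1 library each, which are not replicates). At 5000 to 10000 unique fragments the CGE median was 13.7% and 14.7%, against 13.6% and 14.4% in PVGA, although CGE nuclei were still shallower within that range (6730 and 6460 fragments against 7828 and 7134). In the end 82.5% and 81.8% of the total fragments of a CGE nucleus were kept as unique.

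In the embedding, CGE formed 1 island in each library. With nuclei joined over a radius of 0.63 units, which is 2% of the larger axis, all 255 nuclei of replicate 1 and all 337 of replicate 2 fell into a single island with no nucleus outside. PVGA and SSTGA also formed 1 island each in both libraries. Every one of the 30 nearest neighbours of every CGE nucleus was another CGE nucleus in either library (100%), and the same held for PVGA and SSTGA. The annotation and the embedding both derive from chromatin profiles of the nuclei, so this is a description and no independent check of the name. The nearest nucleus of another name was a vascular endothelial nucleus (VEC), 2.48 units away in replicate 1 and 2.28 in replicate 2. Distances between islands in such an embedding are not to scale, and no likeness is read from them. CGE lay between -2.18 and -0.772 on the first axis, and PVGA and SSTGA lay to its right, apart from each other.

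**Figure D3:**
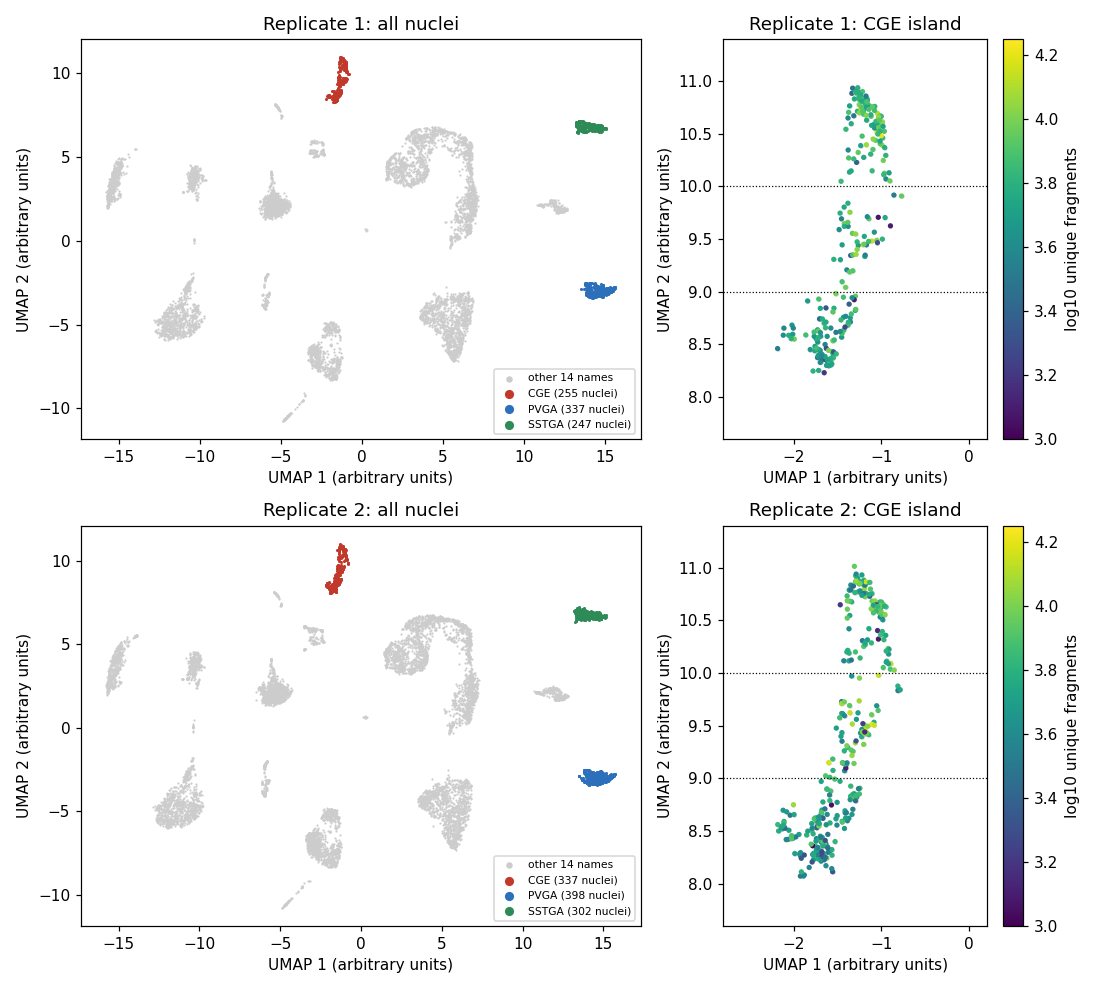
Left, all nuclei of each library in the deposited UMAP embedding (arbitrary units), with CGE, PVGA and SSTGA in colour and the other 14 names in grey. Right, the CGE island alone, coloured by the log10 of unique fragments, with dotted lines at 9 and 10 on the second axis; in both libraries it is 1 elongated body with dense ends, reaching from 8.23 to 10.9 in replicate 1 and from 8.07 to 11.0 in replicate 2.

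The CGE island was longer than those of PVGA and SSTGA. The SD of positions along its long axis was 0.975 units in replicate 1 and 0.983 in replicate 2 (mean 0.979 ± 0.00582), where PVGA had 0.520 ± 0.0174 and SSTGA 0.529 ± 0.0241 (SD, n = 2). Across the short axis CGE, at 0.186 ± 0.0160, lay between SSTGA at 0.165 and PVGA at 0.206. Over a smaller radius of 0.157 units (0.5% of the larger axis, chosen after seeing the data) CGE came apart into 2 bodies in each library, while PVGA and SSTGA did not. In replicate 1 these held 145 and 108 nuclei, with 2 in neither, and in replicate 2 217 and 115, with 5 in neither. On the second axis the lower body ended at 9.84 and the upper body began at 9.92 in replicate 1. In replicate 2 these limits were 9.74 and 9.97, so both replicate 1 bodies reached into the range left between the replicate 2 bodies. The coordinates of both libraries lie in the same deposited embedding, so the like place is no independent support for a break. With the nuclei of both libraries together, and so at a higher density, the same radius gave 1 body of all 592 nuclei. CGE nuclei were spread over a longer island and lay less densely on average, and density was not matched between the groups. The longest step needed to connect all nuclei of a library was 0.222 and 0.216 units in CGE, 0.209 and 0.159 in PVGA, and 0.101 and 0.102 in SSTGA. Over both libraries together it was 0.143 in CGE, 0.154 in PVGA and 0.102 in SSTGA. Whether the 2 bodies reflect density alone was not tested. At 0.25% of the axis each library gave 4 CGE bodies, where SSTGA gave 3 in each and PVGA 1 and 2.

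Along the island, nuclei gathered at both ends. Below 9 on the second axis lay 103 of 255 CGE nuclei of replicate 1 (40.4%, interval 34.3 to 46.7) and 158 of 337 of replicate 2 (46.9%, 41.5 to 52.4). From 10 upward lay 42.0% (107 of 255, 35.8 to 48.3) and 33.5% (113 of 337, 28.5 to 38.8). The stretch between held 17.6% (45 nuclei, 13.2 to 22.9) and 19.6% (66 nuclei, 15.5 to 24.2). The limits of 9 and 10 were chosen after seeing the data. The ends were similar in size in replicate 1 and the lower end was larger in replicate 2, with overlapping intervals between the libraries for each stretch. Without values per gene, neither end can be named as Vip or Lamp5 cells.

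The lower end carried fewer fragments than the upper end in both libraries. Its median was 5241 unique fragments in replicate 1 (quartiles 4082 and 6668) and 4877 in replicate 2 (3570 and 6042). The upper end had 6769 (5714 and 8297) and 6350 (4696 and 7759). The ratio of lower to upper was 0.774 and 0.768 (mean 0.771 ± 0.00441, SD, n = 2), and between the bodies found with the smaller radius it was 0.828 and 0.830. With at least 5000 fragments per nucleus the ratio was 0.908. Nuclei under 5000 unique fragments were 46.6% (36.7 to 56.7) and 51.3% (43.2 to 59.3) of the lower end in replicates 1 and 2, against 12.1% (6.63 to 19.9) and 26.5% (18.7 to 35.7) of the upper end. The stretch between had medians of 6240 and 7148, whose order against the upper end differed between the libraries. Duplicate shares of the lower and upper ends lay close together, at 13.6% and 13.7% in replicate 1 and 14.7% and 14.5% in replicate 2. Depth also varied along the islands of PVGA and SSTGA. With each group cut into 3 equal parts along its own long axis, the highest median exceeded the lowest 1.30-fold and 1.35-fold in CGE, 1.38-fold and 1.42-fold in PVGA, and 1.29-fold and 1.21-fold in SSTGA. Such a ratio cannot fall below 1, and the SSTGA medians of replicate 1 were not in order (8060, 6224 and 6429.5). Pearson's r of depth with position was 0.295 and 0.266 in CGE, -0.346 and -0.331 in PVGA, and -0.277 and -0.212 in SSTGA. Its sign depends on the direction of the axis, and nuclei are not replicates.

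**Figure D4:**
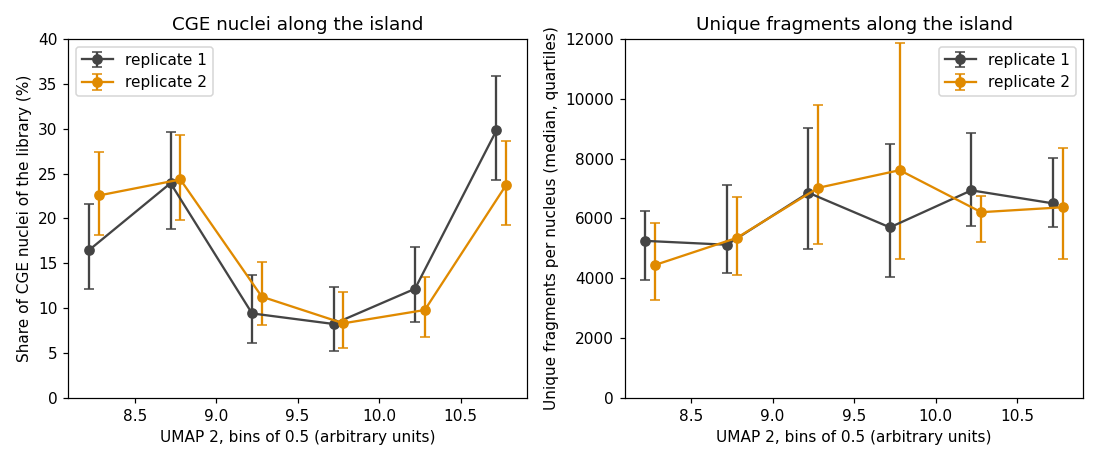
CGE nuclei along the second axis of the embedding in bins of 0.5 units, for replicates 1 and 2. Left, share of the library's CGE nuclei (%) with exact 95% binomial intervals, lowest in the bin from 9.5 to 10 (8.24% and 8.31%); right, median unique fragments per nucleus with quartiles over nuclei, lowest in the bins below 9.

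The libraries were mixed within the CGE island. Among the 30 nearest neighbours of CGE nuclei over both libraries, 54.3% of those of replicate 1 nuclei came from replicate 2, where even mixing within CGE gives 57%. For replicate 2 nuclei 42.6% came from replicate 1, where even mixing gives 43.1%. The ratios of 0.953 and 0.988 lay near those of PVGA (0.968 and 0.987) and SSTGA (0.981 and 1.01).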

How the data were processed

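The authors deposited 1 table per library, holding a name, UMAP coordinates and fragment counts for each nucleus (total, uniquely mapped, in proper pairs, unique after duplicate removal, and mitochondrial). The deposited log10 values are the log10 of the unique count plus 1 and were not used. The coordinates, a score without unit, were used as the authors deposited them; the sources used here do not say on which nuclei they were computed. The methods describe alignment by bwa to mm10, a filter on fragments (MAPQ over 30, properly paired, under 1000 bp), and removal of duplicates. They ask for nuclei with at least 1000 uniquely mapped fragments and a TSS enrichment over 10. Doublets had been removed by the authors, and no further caller was run. The submitters' processing notes also name Cell Ranger ATAC, without a role. The lowest unique count was 1000. The libraries held 48179226 and 55337466 unique fragments.

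From these values, shares, medians and ratios were computed per library and then as mean and SD over 2 libraries. The study's methods call the replicates of each dissection independent biological replicates from pooled mice, whereas the labels of these 10x libraries give replicate numbers only, so part of this spread may be technical. Islands were found with DBSCAN (radius 2% of the larger axis, 5 points, at least 5% of a group's nuclei). Functions were tested on simulated data. The text gives CGE, PVGA and SSTGA in full, and other names only in ranges, in ranks or as neighbours of CGE. The members and lists were chosen with earlier results of these data known. The work used scikit-learn 1.9.0 and scipy 1.17.1, with tables read by pandas 2.3.3 and numpy 2.4.6 under Python 3.11.15 and plots drawn by matplotlib 3.10.9. Mitochondrial counts were 0 throughout.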

Additional observations from a re-analysis of the deposited data

How the results depend on the processing

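Leaving out a library and the neighbour share, which was 100% throughout, are not counted here. Of the other 49 alternative values, 37 moved by less than the SD between the libraries or not at all, and 12 moved by more. Leaving out either of 2 libraries always moves a mean by less than their SD, so it says nothing of stability; it gave a CGE share of GABAergic nuclei of 30.4 to 32.5%, a median of 5668 to 6105 fragments, ratios of 0.755 to 0.808 to PVGA and 0.850 to 0.866 to SSTGA, and 1 island. With at least 5000 unique fragments, the CGE share of GABAergic nuclei was 28.2%, the median 6894 fragments, its ratio to PVGA 0.821 and to SSTGA 0.910, and the properly paired share 99.5333%, shifts that the minimum itself makes by removing shallow nuclei; the lower end's ratio to the upper end was 0.908, and 0.795 with at least 2000. The ratio to SSTGA was 0.896 with means in place of medians. The uniquely mapped share was 96.0% over summed fragments. Among nuclei with at least 95% uniquely mapped fragments, the lower end's ratio to the upper end was 0.778. The number of CGE islands was 2 at a radius of 0.5% and 4 at 0.25% of the axis, and 1 at 1% and 4%, with 10 points, with either minimum and over both libraries. No paired test was made. CGE was set against PVGA and SSTGA within each library, so those differences already keep the pairing by library. Depth, the deposited filters and the absence of values per gene limit what is said of the island's ends.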

Other observations

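CGE held a tail of nuclei with a low share of uniquely mapped fragments, chosen for description after its values were seen. Fewer than 95% of fragments were uniquely mapped in 13 of 255 CGE nuclei of replicate 1 (5.10%, exact 95% interval 2.74 to 8.56) and in 25 of 337 of replicate 2 (7.42%, 4.86 to 10.8). The corresponding shares were 0.593% (0.0720 to 2.13) and 4.02% (2.32 to 6.45) in PVGA and 2.02% (0.660 to 4.66) and 2.98% (1.37 to 5.58) in SSTGA. The CGE interval lay apart only from that of PVGA in replicate 1. It overlapped that of PVGA in replicate 2 and that of SSTGA in both libraries. Over the 9 neuronal names other than CGE the shares ran from 0.524% to 4.82% in replicate 1 and from 2.76% to 8.06% in replicate 2, with NPGL highest in both. Over the 7 non-neuronal names they ran from 10.9% to 70.4% and from 11.96% to 77.7%. By position, in the 0.5 units that start at 10 on the second axis they were 4 of 31 nuclei in replicate 1 (12.9%, 3.63 to 29.8) and 11 of 33 in replicate 2 (33.3%, 18.0 to 51.8). In the bin below they were 3 of 21 (14.3%) and 3 of 28 (10.7%), with intervals (3.05 to 36.3 and 2.27 to 28.2) that overlapped those of the bin starting at 10, and in the bin above 1 of 76 and 2 of 80. In the bin that starts at 10, all 4 and all 11 had a first coordinate above -1.2, where 20 and 22 nuclei of that bin lay. The limit of -1.2 was chosen after seeing the data, and most nuclei of the bin lay above it. Over the whole island, CGE nuclei under 95% had a median depth of 5196 unique fragments in replicate 1 and 6687 in replicate 2. The other CGE nuclei had 6113 and 5580, so the order differed between the libraries. The lowest uniquely mapped share of a CGE nucleus was 91.7% in replicate 1 and 85.5% in replicate 2. Whether depth or position sets these shares was not tested.

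In replicate 1, 2 CGE nuclei had duplicate shares of 1.58% and 2.76%, where the group's median was 13.7%. The first held 1187 unique of 1206 properly paired fragments. In replicate 2 no CGE nucleus had a duplicate share under 8%, and the lowest was 11.3%. Such nuclei were not particular to CGE. Under 8% also lay 2 PVGA nuclei in replicate 1 and 1 in replicate 2, and 1 SSTGA nucleus in replicate 1. Over whole libraries 23 of 7440 and 22 of 8874 nuclei lay under 8%.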
